A study of Mus musculus with 6 samples.

Results

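Type I interferon response genes were examined in NMuMG, a cell line of mouse mammary epithelium, after Mnt was lowered by small interfering RNA (siRNA) during TGF-beta treatment. A named list of 37 genes was looked up by symbol among the 14526 genes of the deposited RNA sequencing table, and a gene was kept where its mean over the 6 libraries was at least 10 normalised read counts. All 37 were in the table and met that minimum, out of 12568 genes that met it. The control group was 3 libraries from cells given a non-targeting siRNA (siNTC), and the other group was 3 libraries from cells given siRNA against Mnt (siMnt). Per the labels, both groups received TGF-beta together with the siRNA 16 hours after plating, with both renewed on day 2, and both were taken on day 4. All cells were under TGF-beta and all had been transfected, so each difference below is between siRNAs in such cells. The knockdown is transient and partial, and the labels do not say whether replicates were separate cultures or how the siRNA was designed.

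Type I interferons are cytokines that cells release when they sense foreign or misplaced nucleic acid. Cytosolic and endosomal sensors start the response, the secreted interferon binds a receptor made of Ifnar1 and Ifnar2, and a complex that includes Stat2 and Irf9 then switches on many antiviral genes through a DNA element called the interferon-stimulated response element (ISRE). Mnt partners with Max to repress transcription at E-boxes, the sites at which Myc with Max activates it.

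The promoters are shown first because the ISRE is the element through which the complex described above acts. The 37 genes themselves were named by symbol and not by this element. Windows from 250 bases before to 50 bases after the start of each gene were taken from RefSeq on the build GRCm38.p6, and 30 of the 37 genes had at least 1 (38 windows in all, since some genes have more than 1 start; a gene counts once). Dhx58, Zbp1, Usp18, Mx1, Mx2, Parp9 and Parp14 had none. Below are the 160 bases before the start of 8 genes, written 5′ to 3′ on the strand of the gene, with matches to the ISRE core, a pair of GAAA runs with any 2 bases between them, on either strand in capitals. They were chosen as the Ifitm family, which held the only genes that passed the test, with antiviral effectors that differed between replicate numbers (Isg15, Ifit1, Ifit3, Rsad2) and Gbp2, which lay lower in siMnt.
Ifitm1, chr7:140967916-140968075, plus strand: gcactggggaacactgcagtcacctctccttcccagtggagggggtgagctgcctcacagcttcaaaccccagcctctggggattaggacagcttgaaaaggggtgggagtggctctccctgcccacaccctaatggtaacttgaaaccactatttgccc
Ifitm2, chr7:140955962-140956121, minus strand: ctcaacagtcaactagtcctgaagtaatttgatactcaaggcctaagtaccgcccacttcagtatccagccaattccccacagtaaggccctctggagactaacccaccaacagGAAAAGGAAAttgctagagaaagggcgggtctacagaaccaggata
Ifitm3, chr7:141010745-141010904, minus strand: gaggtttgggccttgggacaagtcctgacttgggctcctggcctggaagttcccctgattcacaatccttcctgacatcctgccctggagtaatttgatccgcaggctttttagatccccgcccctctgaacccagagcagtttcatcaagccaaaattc
Isg15, chr4:156200819-156200978, minus strand: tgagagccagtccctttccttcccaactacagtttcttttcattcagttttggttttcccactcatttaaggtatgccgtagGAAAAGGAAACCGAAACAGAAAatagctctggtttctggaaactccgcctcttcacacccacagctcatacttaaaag
Ifit1, chr19:34640729-34640888, plus strand: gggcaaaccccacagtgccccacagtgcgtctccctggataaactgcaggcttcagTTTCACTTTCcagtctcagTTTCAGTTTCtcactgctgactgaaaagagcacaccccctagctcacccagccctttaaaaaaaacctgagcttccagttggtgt
Ifit3, chr19:34583369-34583528, plus strand: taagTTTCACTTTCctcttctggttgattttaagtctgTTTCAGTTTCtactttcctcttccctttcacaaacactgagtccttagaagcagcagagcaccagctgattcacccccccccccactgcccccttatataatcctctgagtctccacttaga
Rsad2, chr12:26456453-26456612, minus strand: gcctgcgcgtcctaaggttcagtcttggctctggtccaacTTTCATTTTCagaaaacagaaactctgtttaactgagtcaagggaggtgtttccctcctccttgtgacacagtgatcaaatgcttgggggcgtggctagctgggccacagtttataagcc
Gbp2, chr3:142620503-142620662, plus strand: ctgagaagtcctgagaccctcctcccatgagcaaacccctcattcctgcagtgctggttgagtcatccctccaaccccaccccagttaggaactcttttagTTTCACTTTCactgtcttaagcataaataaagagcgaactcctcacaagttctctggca

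In Ifitm3 the matches lay just after the annotated start, so its first 30 bases are shown as well.
Ifitm3, chr7:141010715-141010744, minus strand: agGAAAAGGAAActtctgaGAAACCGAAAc
Of the 30 genes with a window, 14 held at least 1 ISRE core (46.7%), against 379 of the 10042 tested genes with a window (3.77%). In Isg15 3 overlapping matches began between 78 and 66 bases before the start, in Ifit1 the matches began 104 and 85 bases before it, and in Rsad2 the single match began 120 bases before it. The gamma-activated site, TTCNNNGAA, a second interferon-related element, was in 11 of the 30 (36.7%) and in 8.35% of the tested genes; 2 of its 11 matches shared a base with an ISRE core. The E-box CACGTG was in 1 of the 30, Trim25 (3.33%), and in 11.6% of the tested genes. A match is a string of letters and not a bound site, and both strands were searched for every motif.

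**Figure D1:**
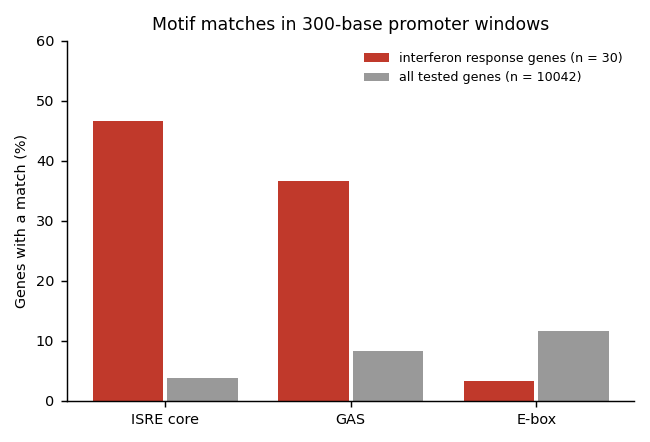
Share of genes with a motif match (vertical axis, percent) in windows of 300 bases around the start, for the 30 interferon response genes with a window and the 10042 tested genes with one. The ISRE core was in 46.7% of the interferon response genes and 3.77% of the tested genes, whereas the E-box was in 3.33% and 11.6%.

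Libraries held between 22323050 and 42193291 recovered reads. Mnt was at 1316, 896 and 1596 normalised read counts in siNTC replicates 1, 2 and 3 and at 613, 557 and 749 in siMnt replicates 1, 2 and 3. These groups did not overlap, and siMnt was at 50.4% of the control mean (log2 fold change -0.96 ± 0.22, adjusted p = 0.0546 by limma; 0.00442 with the replicate number as a block; between 0.0014 and 0.0879 over the settings other than leaving out a library; exact two-sided permutation p = 0.1, the smallest that 3 against 3 allow). Leaving out siNTC replicate 2 or 3 brought its adjusted p to 0.0393 and 0.041, and leaving out any 1 of the others left it between 0.0902 and 0.225. On the first principal component (60.8% of the variance) siNTC replicate 3 lay at -0.81, between the other controls at -43.0 and -52.3 and the siMnt libraries at 29.4 to 35.5. Of the interferon response genes, 26 of 37 were highest in this library among the controls, against 33.8% of all tested genes. Likewise siMnt replicate 3 was the lowest of its group for 19 of the 37, against 32.4% of all tested genes. Counts are therefore given below also without siNTC replicate 3, without siMnt replicate 3 and without both, the last of these chosen after the values were seen.

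Of the 37 interferon response genes, 2 rose in siMnt cells, Ifitm1 and Ifitm3, and 0 fell, at an adjusted p under 0.05 (limma, Benjamini-Hochberg adjustment over all tested genes). Ifitm1 and Mx1 had control means of 6.30 and 6.44 and met the minimum level only through the siMnt libraries. Their place in the counts below therefore depends on the group in which they were high. Across all tested genes 2.56% were called higher and 1.37% lower, 3.93% in all. At an unadjusted p under 0.05 limma gave 8 higher and 1 lower of the 37, against 12.7% and 10.7% of all tested genes. At an adjusted p under 0.05 edgeR called 2 higher and 0 lower, and DESeq2 called 6 higher and 1 lower. These tools called 2.29% and 1.25% (edgeR) and 6.71% and 4.89% (DESeq2) of all tested genes. A limma fit that takes replicate number as a block passed the 6 and 1 that DESeq2 did, namely Ifitm1, Ifitm3, Irf7, Isg20, Mx1 and Rsad2 higher and Gbp2 lower, where 9.33% and 6.56% of all tested genes passed. The groups did not overlap for 11 of the 37, 9 with siMnt higher and 2 with siMnt lower, against 15.6% and 15.9% of all tested genes. The median log2 fold change was 0.29, against -0.01 over all tested genes. In bulk RNA, a change in the number of cells that express a gene and a change in RNA per cell cannot be told apart.

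Without siNTC replicate 3, 5 of the 37 were called higher and 0 lower (1 at an unadjusted p under 0.05; 9.51% and 6.5% of all tested genes were called), and without both replicate 3 libraries 7 were higher and 0 lower (1 unadjusted; 6.01% and 2.77%). Those 7 were Ifitm1, Ifitm3, Irf7, Mx1, Rsad2, Usp18 and Ifit1. Without siMnt replicate 3 the call was Rsad2 alone (0.629% of all tested genes higher and 0.366% lower), and without siNTC replicate 2 it was Ifitm3 alone (1.11% and 0.621%). Leaving out siNTC replicate 1, or either siMnt replicate 1 or 2, left 0 genes of the whole table called by limma. In these 3 fits, 5, 6 and 6 of the interferon response genes had an unadjusted p under 0.05 on the higher side, against 10.1%, 8.51% and 8.93% of all tested genes, and 1 each on the lower side, against 7.32%, 5.94% and 6.35%. Under other settings the higher and lower calls were 2 and 0 with a pseudocount of 5 (2.95% and 1.5% of all tested genes), 1 and 0 with a mean of at least 50 (30 tested, Ifitm1 not among them; 1.85% and 1.03%), 4 and 0 after a correction for GC content and length (4.81% and 2.95%) and 6 and 2 with that correction and the block (11% and 7.97%). They were 6 and 1 by edgeR with the block (9.24% and 6.24%) and 5 and 1 at an adjusted p under 0.1 by limma (6.46% and 4.17%).

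**Figure D2:**
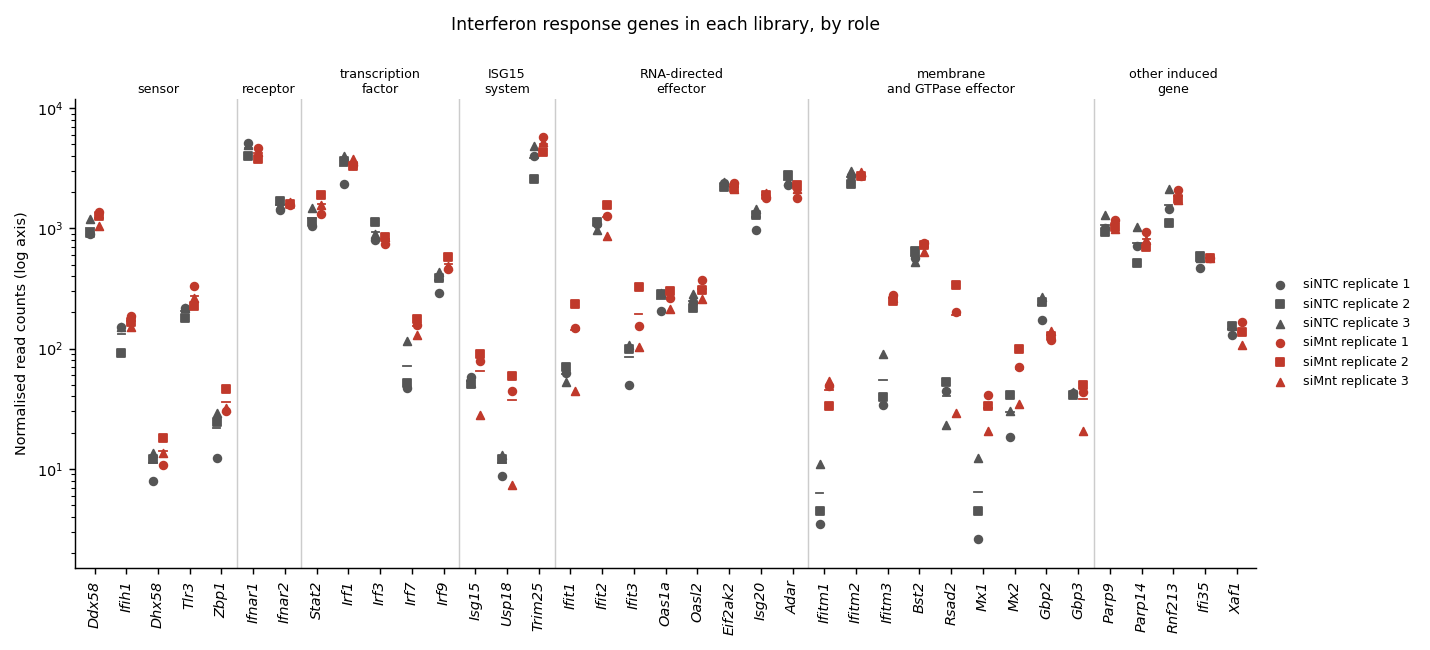
Normalised read counts (vertical axis, log scale) of the 37 genes in each of the 6 libraries, siNTC in grey and siMnt in red, with marker shape giving the replicate number and short lines at group means. Genes are ordered by role; Ifitm1 and Ifitm3 are higher in each siMnt library than in any siNTC library, and for Rsad2, Usp18 and Ifit1 siMnt replicate 3 lies near the controls.

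The Ifitm genes encode small membrane proteins that keep enveloped viruses from fusing with the cell, Ifitm3 mainly at endosomes and Ifitm1 mainly at the cell surface. Ifitm3 was at 34.1, 39.9 and 89.8 normalised read counts in siNTC replicates 1, 2 and 3 and at 279, 248 and 261 in the siMnt libraries. Even the highest control was below every siMnt library. The mean rose from 54.6 ± 30.6 to 263 ± 15.5 (SD, n = 3), a log2 fold change of 2.38 ± 0.35 with adjusted p = 0.0205 by limma. With the block the adjusted p was 0.00354, over the other settings it lay between 1.26e-07 and 0.0317, and over fits that left out 1 library between 0.000363 and 0.132. It stayed under 0.05 only without siNTC replicate 2 or 3 among the latter.

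Ifitm1 had the largest log2 fold change of the 37 genes and rested on few reads. It was at 3.49, 4.43 and 10.98 normalised read counts in the controls, from 4, 4 and 17 reads, and at 48.7, 33.4 and 53.9 in siMnt, from 45, 28 and 44 reads. Again no siMnt library came near the controls. Its log2 fold change by limma was 2.78 ± 0.46 (adjusted p = 0.0264, and between 0.000123 and 0.0293 over the other settings). Among fits that left out 1 library it passed only without siNTC replicate 3 (adjusted p = 0.00193), the others lying between 0.0546 and 0.156. Its control mean was under 10, so that it met the minimum level only through the siMnt libraries, as did Mx1.

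Ifitm2, the family member with the highest level, showed no such difference. It was at 2729, 2332 and 3014 normalised read counts in the controls and at 2697, 2742 and 2941 in siMnt, with overlapping groups (log2 fold change 0.06 ± 0.13, adjusted p = 0.818 by limma). Of the 50-base stretches of its longest transcript, 48.5% also occur in transcripts of other genes, against 10.02% for Ifitm3 and 6.36% for Ifitm1. The sources used here do not say how such reads were assigned, so the Ifitm2 level is uncertain. The 3 genes lie within 500 kilobases of each other on chromosome 7, with Irf7 also in that range.

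Among the other membrane and GTPase effectors, Rsad2 and Mx2 were higher in siMnt replicates 1 and 2 than in any control and within the range of the controls in siMnt replicate 3. Rsad2 (viperin), an enzyme that makes a chain-terminating nucleotide, was at 44.5, 53.2 and 23.3 normalised read counts in the controls and at 201, 335 and 29.4 in siMnt. The groups overlapped, since siMnt replicate 3 lay below 2 of the controls, but within each replicate number siMnt was the higher, by 2.15, 2.63 and 0.33 on the log2 scale. The log2 fold change was 1.70 ± 0.81 (adjusted p = 0.251 by limma, 0.0253 with the block, 0.038 without siMnt replicate 3 and 0.00613 without both replicate 3 libraries; between 0.0103 and 0.301 over the other settings, and up to 0.552 leaving out 1 library).

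Mx1 and Mx2, dynamin-like GTPases that block viral nucleocapsids, both had siMnt replicate 3 as the lowest siMnt library. Mx1 was at 2.62, 4.43 and 12.3 normalised read counts in the controls and at 41.1, 33.4 and 20.8 in siMnt, so the groups did not overlap, from 3, 4 and 19 against 38, 28 and 17 reads. Its log2 fold change was 2.31 ± 0.55 (adjusted p = 0.0599 by limma, 0.028 with the block, 0.0062 without siNTC replicate 3; between 0.0161 and 0.0696 over the other settings, and up to 0.249 leaving out 1 library). For Mx2 the controls were at 18.3, 41.0 and 30.4 and siMnt at 70.3, 99.0 and 34.3, with overlap between siMnt replicate 3 and siNTC replicate 2 (log2 fold change 1.10 ± 0.45, adjusted p = 0.193; 0.0647 to 0.208 over the other settings). Bst2 (tetherin), which holds budding virus at the cell surface, was at 583.5 ± 63.9 and 705 ± 64.1 (adjusted p = 0.287).

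The guanylate-binding proteins are GTPases that attack the membranes of intracellular pathogens, and 2 of them, Gbp2 and Gbp3, are among the 37 genes. Gbp2 was at 173, 246 and 267 normalised read counts in the controls and at 119, 128 and 139.7 in siMnt. Each siMnt library was below each control, also within replicate number 3, where the log2 difference was -0.93. By limma its log2 fold change was -0.80 ± 0.21, with an adjusted p of 0.0734, and 0.0201 with the block, between 0.0138 and 0.0838 over the other settings and between 0.0742 and 0.276 leaving out 1 library. Gbp3 lay at 42.4 ± 1.21 and 38.1 ± 15.3, with siMnt replicate 3 the lowest of all libraries at 20.8 (adjusted p = 0.734). Of the other family members, named after their values were seen, Gbp4, Gbp6, Gbp7, Gbp8 and Gbp9 had log2 fold changes of 1.06, 1.16, 0.64, 0.81 and 0.21. By limma 0 of these passed. With the block Gbp4 and Gbp6 did (adjusted p = 0.0204 and 0.0387), where 9.33% of all tested genes were called higher.

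Isg15 is a ubiquitin-like tag that interferon induces, and Usp18 and Trim25 act with it or on it. Usp18, which removes the tag and dampens receptor signalling, was at 8.73, 12.2 and 12.9 normalised read counts in the controls and at 44.3, 59.7 and 7.35 in siMnt. Thus siMnt replicates 1 and 2 were above each control and siMnt replicate 3 was below all of them (log2 fold change 1.23 ± 0.71, adjusted p = 0.334 by limma and 0.182 with the block; 0.0177 without both replicate 3 libraries; 0.106 to 0.355 over the other settings). Isg15 itself was at 58.5, 51.0 and 51.7 in the controls and at 78.9, 89.5 and 28.2 in siMnt, with siMnt replicate 3 again below every control (log2 fold change 0.12 ± 0.42, adjusted p = 0.896). Trim25, a ubiquitin ligase that activates the sensor RIG-I, was at 3817 ± 1145 and 5068 ± 730.2, and was higher in siMnt within all 3 numbers (adjusted p = 0.284; 0.0448 to 0.344 over the other settings, the lowest with the block and the GC and length correction).

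Effectors that act on RNA included the Ifit proteins, which bind viral RNA ends. Ifit1 was at 62.9, 69.8 and 52.3 normalised read counts in the controls and at 148, 236 and 44.1 in siMnt (adjusted p = 0.353 by limma; 0.0265 without both replicate 3 libraries; 0.093 to 0.392 over the other settings). Ifit3, with 49.8, 98.6 and 108 in the controls, was at 154, 328 and 103 in siMnt (adjusted p = 0.201). In both genes siMnt replicate 3 lay within or below the range of the controls, and the other siMnt libraries lay above it. Of the 50-base stretches of Ifit3, 51.2% are shared with Ifit3b, so their values cannot be fully separated. Ifit2 was at 1064 ± 90.3 and 1235 ± 353 (adjusted p = 0.659).

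Isg20, an RNA exonuclease, differed from this pattern in that siMnt replicate 3 was its highest library. It was at 973, 1300.4 and 1438 normalised read counts in the controls and at 1795, 1910.4 and 1980.2 in siMnt, without overlap. By limma its log2 fold change was 0.63 ± 0.16, with an adjusted p of 0.0659, 0.0132 with the block and 0.0103 by DESeq2, up to 0.101 over the other settings and between 0.0174 and 0.23 leaving out 1 library. Adar, which edits adenosine to inosine in double-stranded RNA and so limits its sensing, was lower in each siMnt library than in each control, at 2310.2, 2754 and 2497 against 1798, 2298 and 2133 (log2 fold change -0.28 ± 0.13, adjusted p = 0.249; 0.0334 to 0.303 over the other settings, the lowest with the block and the GC and length correction). Eif2ak2 (PKR), the kinase that halts translation on double-stranded RNA, was at 2338 ± 125 and 2218 ± 143 (adjusted p = 0.722). The oligoadenylate synthetase Oas1a and the related Oasl2 were at 260.2 and 259 and at 250.2 and 313, with adjusted p-values of 0.996 and 0.368, and 57.6% of the 50-base stretches of Oas1a are shared with Oas1g.

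**Figure D3:**
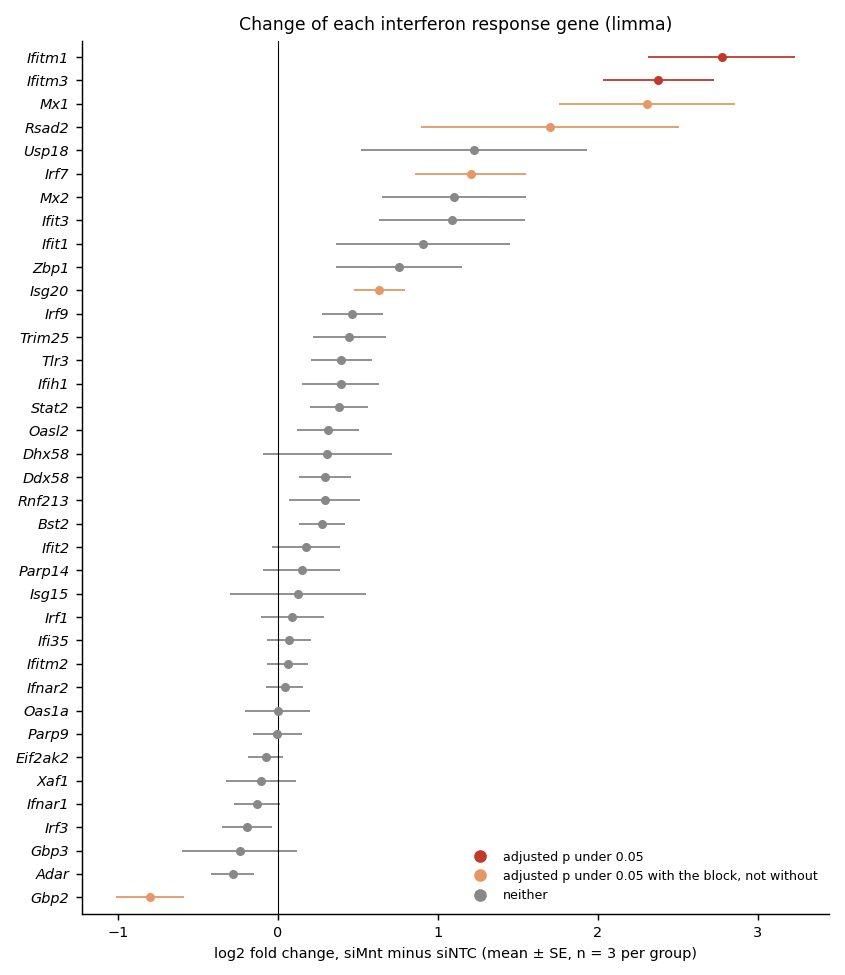
Log2 fold change (horizontal axis, siMnt minus siNTC, point and standard error, n = 3 libraries per group) of the 37 genes in order of size. Red marks Ifitm1 and Ifitm3, which passed at an adjusted p under 0.05 by limma, and orange the 5 genes that passed by limma with the replicate block and not without it, 4 higher (Irf7, Isg20, Mx1, Rsad2) and 1 lower (Gbp2).

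None of the 5 sensors passed by limma, edgeR or DESeq2, or by limma at an unadjusted p under 0.05, although each had a log2 fold change above 0. Ddx58 (RIG-I), which senses viral RNA ends, was at 894, 919 and 1193 normalised read counts in the controls and at 1358, 1276 and 1044 in siMnt, so siMnt replicate 3 overlapped the controls (log2 fold change 0.29 ± 0.16, adjusted p = 0.312). Ifih1 (MDA5), the sensor of long double-stranded RNA, was at 131 ± 34.1 and 169 ± 18.2 (adjusted p = 0.364). The regulator Dhx58 (LGP2) was at 11.2 ± 2.98 and 14.1 ± 3.58 (adjusted p = 0.69). Tlr3, the endosomal receptor for double-stranded RNA, was at 205 ± 23.1 and 272 ± 51.9, and Zbp1, which binds Z-form nucleic acid, at 21.9 ± 8.69 and 36.2 ± 8.97 (adjusted p = 0.26 and 0.287). For Ifih1, Tlr3 and Zbp1 the groups did not overlap, with siMnt higher, as for 15.6% of all tested genes. In Ifih1 this was close to a tie, with the highest control at 151.81 and the lowest siMnt library at 151.95.

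The receptor genes were close between the groups. Ifnar1 was at 5109, 3976 and 4939 normalised read counts in the controls and at 4686, 3749 and 4333 in siMnt (log2 fold change -0.13 ± 0.14, adjusted p = 0.618). Ifnar2 lay at 1562 ± 141 and 1605 ± 40.1, a log2 fold change of 0.043 ± 0.12 (limma, adjusted p = 0.867). Both sets of values overlapped between the groups.

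Among the transcription factors the interferon-inducible Irf7, which amplifies interferon production, had the largest log2 fold change. It was at 47.2, 52.1 and 115 normalised read counts in siNTC replicates 1, 2 and 3 and at 157, 177 and 129 in siMnt. The groups did not overlap, but in replicate number 3 the control and siMnt libraries were close, with a log2 difference of 0.16 against 1.71 and 1.74 in numbers 1 and 2. The log2 fold change was 1.21 ± 0.35 (adjusted p = 0.0894 by limma, 0.0358 with the block and 0.00396 without siNTC replicate 3; up to 0.125 over the other settings and up to 0.285 leaving out 1 library). Irf9 and Stat2, the subunits that give the interferon-activated complex its DNA binding and its activation domain, were at 370.4 ± 74.7 and 506.6 ± 60.7 and at 1215 ± 226 and 1583 ± 286 (adjusted p = 0.19 and 0.251), and both were higher in siMnt within all 3 numbers. Irf3, the constitutive factor that sensors activate, was at 940.1 ± 168 and 816 ± 61.4, and Irf1, a factor shared with interferon gamma signalling, at 3324 ± 870.4 and 3454 ± 254 (adjusted p = 0.497 and 0.829).

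The last 5 induced genes all overlapped between the groups. They are the ADP-ribosyltransferase family members Parp9 and Parp14, the giant ubiquitin ligase Rnf213, the leucine zipper protein Ifi35 and the apoptosis regulator Xaf1. Their log2 fold changes lay between -0.11 (Xaf1) and 0.29 (Rnf213), with adjusted p-values from 0.469 (Rnf213) to 0.99 (Parp9). All 5 were higher in siMnt in replicate number 1, 3 of 5 in number 2 and 0 of 5 in number 3.

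Setting each siMnt library against the control of the same replicate number gave differences that varied between numbers. In number 1, 31 of the 37 genes were higher in siMnt and 10 by at least 2-fold, where 48.4% and 7.55% of all tested genes were. In number 2, 28 were higher and 9 by at least 2-fold, against 49.6% and 8.27%. In number 3, 15 were higher and 2 by at least 2-fold, Ifitm1 and Ifitm3, against 49.2% and 2.45%. The median log2 differences were 0.43, 0.48 and -0.07, and those of all tested genes -0.016, -0.0064 and -0.0045. A difference between number 3 and the others was not tested, since each number holds 1 library of a group.

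Of the 37 genes, 9 were at least 2-fold higher in both number 1 and number 2: Irf7, Usp18, Ifit1, Ifit3, Ifitm1, Ifitm3, Rsad2, Mx1 and Mx2. This group was picked after its values were seen and is a description. Its median log2 difference was 2.15 and 2.20 in numbers 1 and 2 and 0.17 in number 3. For Irf7, Usp18, Ifit3 and Mx1 the number 3 control was the highest of the controls and the number 3 siMnt library the lowest of its group; for Ifitm1 and Ifitm3 only the former held, and for Ifit1, Rsad2 and Mx2 only the latter. The part of either library in these differences was not tested. Over all 37 genes, 14 were higher in siMnt within all 3 numbers and 5 were lower in all 3, against 28.4% and 29.4% of all tested genes.

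**Figure D4:**
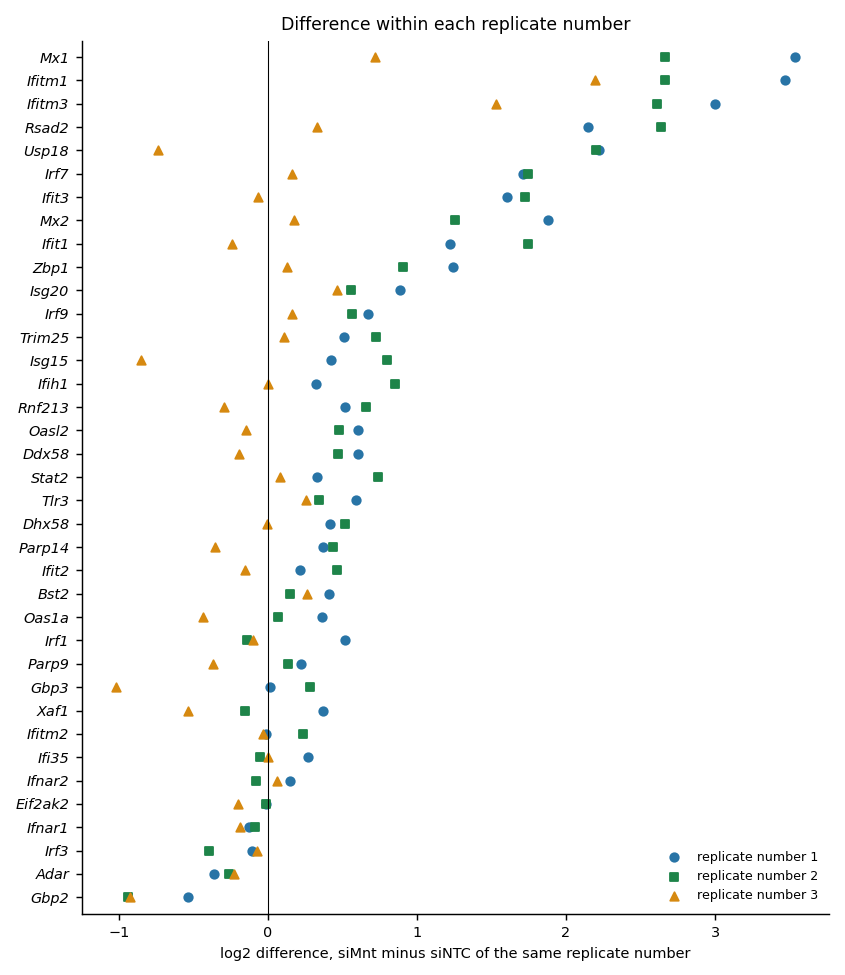
Log2 difference between the siMnt and siNTC libraries of the same replicate number (horizontal axis) for the 37 genes, 1 point for each of the 3 numbers, ordered by the mean of numbers 1 and 2. The median of number 3 is -0.07, and its points for Ifitm1 and Ifitm3 lie at 2.20 and 1.53.

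Among the 30 genes with a window, those with and without the ISRE letters had close medians. The 7 genes with no window, Usp18, Mx1 and Mx2 among them, could not be classed. Their median log2 fold change was 0.76, and in numbers 1, 2 and 3 it was 1.24, 0.91 and -0.0086. The 14 genes with an ISRE core had a median log2 fold change of 0.28 and the 16 with a window and none had 0.23; in number 1 the medians were 0.39 and 0.51, in number 2 they were 0.60 and 0.41 and in number 3 they were -0.13 and -0.037. As shown above, Ifitm3 holds matches just after its start and Ifitm1 holds none in its window, and both rose. Ifitm2 holds 1 match and was close between the groups, and Gbp2 holds 1 and lay lower in siMnt. These are descriptions of 300-base windows around annotated starts, and binding was not measured.

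The wider pathway was described with lists of 167 further genes, of which 118 were tested. By limma 4 rose (Tmem173, Irf8, Ifi27l2a and Bst1) and 1 fell (Irgm1), against 2.56% and 1.37% of all tested genes. With the block 20 and 8 passed, against 9.33% and 6.56% of all tested genes. The median log2 fold change was 0.21, and 0.37, 0.41 and 0.0061 within numbers 1, 2 and 3. Without both replicate 3 libraries 25 were higher and 1 lower, against 6.01% and 2.77% of all tested genes. With siNTC replicate 3 alone left out 31 and 4 passed (9.51% and 6.5% of all tested genes). With siMnt replicate 3 alone left out 2 and 0 did (0.629% and 0.366%). Each of siNTC replicate 1, siMnt replicate 1 and siMnt replicate 2, when left out, brought both counts to 0, as it did for the whole table.

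Of 14 sensing adaptors and kinases 1 rose by limma, against 2.56% of all tested genes. This was Tmem173 (STING), the adaptor of cytosolic DNA sensing. It was at 106, 126 and 154 normalised read counts in the controls and at 413, 329 and 327 in siMnt, far from overlap (log2 fold change 1.47 ± 0.20 by limma, adjusted p = 0.0168). Ifi204, a DNA-binding PYHIN protein, was at 299.7 ± 79.4 and 159.9 ± 28.4 (adjusted p = 0.074). Of 7 other interferon regulatory factors 1 rose, again against 2.56% of all tested genes. This was the myeloid factor Irf8, at 22.7, 28.8 and 52.3 in the controls and 159, 119 and 91.9 in siMnt. Its log2 fold change was 1.86 ± 0.36 (adjusted p = 0.0368 by limma). Irf2 was at 627 ± 12.2 and 817 ± 118.5 (adjusted p = 0.169 by limma). Tmem173 passed in limma without siNTC replicate 2, siNTC replicate 3 or siMnt replicate 3, with adjusted p-values of 0.0399, 0.00204 and 0.0417, and Irf8 only without siNTC replicate 3 (0.00321).

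Of 70 other interferon-induced genes 2 rose and 1 fell by limma, against 2.56% and 1.37% of all tested genes. With the block 13 were higher and 4 lower, against 9.33% and 6.56%. Among the 13 was Ifit1bl1, named after its values were seen. Its control mean was 7.44, so it met the minimum level only through the siMnt libraries. Ifi27l2a, a small membrane protein, was at 7.86, 21.0 and 16.8 normalised read counts in the controls and at 119, 109.8 and 88.2 in siMnt (log2 fold change 2.80 ± 0.38 by limma, adjusted p = 0.0168). Bst1, a surface enzyme that cleaves NAD, rose from a mean of 19.7 ± 1.51 to one of 67.2 ± 2.18 (by limma, log2 fold change 1.72 ± 0.25 with adjusted p = 0.0203). Irgm1, an immunity-related GTPase, fell from a mean of 4589 ± 311 to one of 2800.5 ± 181 (by limma, log2 fold change -0.71 ± 0.11 with adjusted p = 0.0242). All 3 kept their direction in replicate number 3, with log2 differences of 2.33, 1.84 and -0.78. Leaving out siNTC replicate 1, siMnt replicate 1 or siMnt replicate 2 left 0 of the 3 under 0.05, with adjusted p-values between 0.0721 and 0.132; without siMnt replicate 3 Ifi27l2a passed (0.0402) and Bst1 and Irgm1 did not (0.063 and 0.0767). Oas2, named after its values were seen, was likewise lowest in siMnt replicate 3 within its group, at 4.37, 7.75 and 26.5 in the controls and 112, 72.8 and 33.1 in siMnt (adjusted p = 0.0689; 0.0315 with the block, between 0.00623 and 0.0953 over the other settings).

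Of 9 further receptors, kinases and Stat factors 0 passed by limma. The interferon lambda receptor subunit Ifnlr1 was at 391.9 ± 162 and 669 ± 59.98 and Stat3 at 4025 ± 1281 and 6233 ± 252 (adjusted p = 0.106 and 0.101), and with the block both passed (0.0169 and 0.0204), against 9.33% of all tested genes called higher. At an unadjusted p under 0.05 limma gave 4 of the 9, where 23.4% of all tested genes were under it, and edgeR called 0 and DESeq2 1. Of 18 negative regulators 0 passed by limma and 4 were under that unadjusted threshold, again beside 23.4% of all tested genes. By edgeR 0 passed and by DESeq2 2 did, where DESeq2 called 6.71% of all tested genes higher and 4.89% lower. With the block 2 higher and 2 lower passed by limma, against 9.33% and 6.56% of all tested genes. These last were Ptpn6 and Samhd1 higher and Ptpn11 and Tnfaip3 lower, Samhd1 and Tnfaip3 being named after their values were seen. The phosphatases Ptpn11 and Ptpn6 had the smallest p-values, at 7976 ± 902 and 5278 ± 534 and at 121 ± 19.3 and 190 ± 28.6 (adjusted p = 0.0502 and 0.111; with the block 0.0142 and 0.0361). Of the interferon genes themselves 2 of 23 were in the table, Ifng and Ifnz, with at most 6 reads in any library and below the minimum level. The other 21, Ifnb1 among them, were not analysed here.

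Of 8 markers of mammary epithelium 6 were in the table, and their sum was high in all libraries. It lay between 118641 and 146748 normalised read counts in the controls and between 129367 and 140851 in siMnt. Krt18 and Krt8 were the highest of them in every library, and Krt5 was the lowest, at 24.5 to 45.3. Of 10 myeloid markers 7 were in the table and 5 tested. Csf1r and Itgam rose (adjusted p = 0.0242 and 0.0493 by limma), where 2.56% of all tested genes were called higher. Itgam met the minimum level only through the siMnt libraries. The rest of the 5 did not pass: Fcgr3 had a log2 fold change of 1.17, Cd68 one of -0.19 and Cd14 one of -0.15 (adjusted p = 0.159, 0.765 and 0.531 by limma). Fcgr3 was at 3.88 to 8.86 normalised read counts in the controls, so it too met the minimum level only through the siMnt libraries. The sum of the 7 lay between 2205 and 2809 in the controls and between 3393 and 3487 in siMnt. Csf1r alone was at 757 to 1196 in the controls and at 1856 to 2074 in siMnt. The pan-leukocyte marker Ptprc was at 1.29 to 6.65 over all libraries. Lyz2 was at 1.94 to 3.49 in the controls and at 4.90 to 11.9 in siMnt. Of 8 lymphoid markers 2 were in the table, summing to at most 15.5 in any library. Of the markers of plasmacytoid dendritic cells, fibroblasts and endothelium 0 were called by limma, and their sums lay between 2082 and 2584, 191 and 249, and 78.2 and 118 in the controls and between 2209 and 2383, 215 and 247, and 62.7 and 74.7 in siMnt. The plasmacytoid sum rested on Tcf4, at 1427 to 2054 over all libraries, and on Bst2, at 528 to 757. Ccr9, also in that sum, was at 1.08 to 2.62 over all libraries. Bst2 is itself among the interferon response genes described above, so the sum is not separate from them. The part of the markers listed here in the differences above was not tested.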

How the data were processed

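The authors deposited 1 table of normalised values per gene for 6 libraries, a signal that is never negative. TopHat2 2.1.0, DESeq2, DESeq 3.5 and the build mm9 are named, with no role or order, per the submitters' processing notes; the sources used here do not give the counting tool, annotation, strand or filters. From the values, each is a read count divided by 1 factor per library: of values above 0, 99.75% came within 0.05 of whole reads, and reads were recovered so. No 2 replicates were copies (mean chi-square per gene of 15.2 or more). Replicates are not labelled as separate cultures: a p-value here reflects the spread among these libraries alone, which may be technical.

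Groups and replicate numbers come from the titles. Values were taken as log2(value + 1), which understates the change of low genes. The 12568 genes with a mean of at least 10 (1958 were left out) entered limma 3.58.1 under R 4.3.3 (empirical Bayes with a trend, no block), with Benjamini-Hochberg adjustment. Fold changes are siMnt minus siNTC. Alternatives were other pseudocounts, filters, scalings and thresholds, the replicate block, leaving out libraries, edgeR 4.0.16 and DESeq2 1.42.0 on recovered reads, and a correction for GC content and length from GENCODE M21 transcripts, which matched 98.8% of the tested genes. The fits were tested on simulated data with independent libraries, no effect of replicate number and no control library set apart. That simulation cannot say how they behave with a library such as siNTC replicate 3. Deviations of same-numbered libraries from their group means correlated at 0.28, 0.50 and 0.35 across genes, against -0.38 to 0.033 for other combinations. The numbers were therefore taken as pairs in the fits with the block and in the differences within replicate numbers. The main limma fit has no block and leaves the pairing out. This pairing comes from the titles and the data. Deviations within a group cancel out for each gene, so positive correlations for same numbers by themselves push those of the other combinations down. The 37 genes and the other lists were chosen with earlier results of these data known. Named are Mnt, all 37 genes, and of each other list the genes that passed, or the 2 with the smallest p where fewer than 2 passed.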

Additional observations from a re-analysis of the deposited data

How the results depend on the processing

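The log2 fold changes of Ifitm1 and Ifitm3 kept their sign under every alternative run that tested them, and the median over the 37 genes stayed above 0, between 0.22 and 0.53. Counts moved more. Against 494 genes called by limma, 322 were called with a mean of at least 50, 306 without a variance trend, 1457 by DESeq2, 964 after the GC and length correction, 2353 with that correction and the block, 1998 with the replicate block, 1945 by edgeR with the block, 1103 without both replicate 3 libraries and 1336 at an adjusted p under 0.1. Leaving out 1 library gave between 0 and 2012. Of the 37 interferon response genes, higher calls were 1, 6, 4, 6, 6, 6, 7 and 5 in the order mean of at least 50, DESeq2, GC and length correction, that correction with the block, the block, edgeR with the block, without both replicate 3 libraries and adjusted p under 0.1, and between 0 and 5 without 1 library; Isg20 and Mx1 were the genes added by the GC and length correction. Lower calls were 1 with the block, by DESeq2, by edgeR with the block and at an adjusted p under 0.1, and 2 (Adar and Gbp2) with the block and the correction together. Of the wider pathway genes, 8 passed with a pseudocount of 5, 28 with the block, 22 by DESeq2, 12 and 31 after the correction without and with the block, 26 by edgeR with the block, 26 without both replicate 3 libraries and 18 at an adjusted p under 0.1, and between 0 and 35 without 1 library. Mnt (adjusted p = 0.0546 by limma, so past the 0.1 threshold at -0.96) passed with the block at -0.96, by DESeq2 at -0.98, by edgeR with the block at -0.95 and after the correction, with or without the block, at -1.04; without 1 library its log2 fold change lay between -1.19 and -0.77.

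Signs changed in genes that passed under no setting. Oas1a (-0.0026 by limma) was at 0.011 after upper quartile rescaling, 0.010 after median centring, 0.0038 by edgeR, 0.0024 by DESeq2, 0.0065 by edgeR with the block, 0.031 after the GC and length correction with or without the block and 0.21 without both replicate 3 libraries. Parp9 (-0.0043 by limma) was at 0.0099 after upper quartile rescaling, 0.0085 after median centring, 0.0047 by edgeR with the block, 0.035 after the correction with or without the block and 0.18 without both replicate 3 libraries. Without both replicate 3 libraries Gbp3 was at 0.15 and Xaf1 at 0.11. Leaving out 1 library moved the log2 fold change between -0.027 and 0.10 for Ifnar2, -0.14 and 0.25 for Irf1, -0.18 and 0.64 for Isg15, -0.017 and 0.41 for Ifit2, -0.16 and 0.13 for Oas1a, -0.039 and 0.15 for Ifitm2, -0.48 and 0.13 for Gbp3, -0.097 and 0.13 for Parp9, -0.094 and 0.40 for Parp14, -0.029 and 0.13 for Ifi35, and -0.26 and 0.062 for Xaf1. The cause was not tested. Depth limits the genes with few reads, among them Ifitm1 and Mx1 with 3 to 19 reads in each control.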
